A study of Mus musculus with 8 samples.

Results

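Wild-type leukaemia-initiating cells (WT LICs) of a mouse model of chronic myeloid leukaemia were compared with normal LSK cells, gene by gene, for 11963 of the 12393 genes measured and on 6 of the 8 arrays of the series. The genes were chosen by position and kind and not by their values: 410 genes of the X and Y chromosomes and 20 immunoglobulin segments were left out. The probe set of each gene was chosen by its values, as the brightest over all 8 arrays. LSK cells are bone marrow cells that lack lineage markers and carry Sca1 and Kit, a fraction rich in blood stem cells and multipotent progenitors. They came from normal C57/BL6 mice aged 12 weeks, and the 3 arrays are titled WT HSC. WT LICs carried the same surface markers plus GFP, and were sorted 14 days after bone marrow transplantation in a retroviral leukaemia model; the labels give the same strain and age. The oncogene of the retrovirus is not named in the labels, GFP marks the infected cells, and no transplantation is given for the LSK mice, so leukaemia, infection and transplantation cannot be told apart. Another group of 2 arrays, LICs that lacked Ezh2 (Ezh2 KO LICs), shared the transplantation and the time point. Its values are given side by side, and its arrays also entered the fit that set the spread for every test. Each sample was sorted 2 times, and arrays are numbered by the repeat in their titles. Repeats are called biological, and pooling of animals is not stated.

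Chronic myeloid leukaemia is classically driven by the BCR-ABL kinase, which keeps cytokine-type signals running without cytokine. The main branches are the transcription factor STAT5, the RAS and ERK kinases, and PI3K with AKT, which silences FoxO factors. Stem cells in the normal marrow divide rarely and rely on outside signals, such as stem cell factor and TGF-beta, for survival and rest. Growth programmes of a dividing cell include amino acid uptake, protein synthesis and folding, and carbon metabolism.

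Levels are log2 intensities of a probe set, differences are WT LIC minus LSK on that log2 scale with the standard error (SE) of the limma fit, and "rose" or "fell" is written only for a Benjamini-Hochberg adjusted p under 0.05 over all 12393 genes. Levels of different genes are not comparable, because probe sets differ in brightness. A level at or under 4.01 is at background, as set by unspiked control probe sets. With 3 arrays in each group, and nothing that links repeats to separate animals beyond the word biological, the p-values measure the spread between these samples. In bulk samples fewer cells of a type and less RNA in each cell cannot be told apart.

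The 6 arrays were of like technical quality, with 69.7 to 70.8% of genes above background and 3′ to 5′ differences of 0.73 to 1.00 for the actin control probe sets. Correlation over genes was 0.980 to 0.986 within LSK arrays, 0.971 to 0.988 within WT LIC arrays and 0.962 to 0.968 between them. Of 5 measured stem cell gate and surface marker genes all had a negative difference (median -1.19), with a summed intensity of 8762 to 9574 in LSK cells and 4642 to 6663 in WT LICs. Kit alone of them passed the test, from 10.90 to 11.04 in LSK cells down to 9.69 to 9.81 in WT LICs; Cd34, Flt3, Procr and Slamf1 differed by -0.32, -1.92, -1.71 and -0.63. Ly6a, which encodes Sca1, was not measured. WT LIC array 3 stood apart from the other WT LIC arrays in erythroid genes and in Xist, whose level was 4.35 there against 10.68 and 11.06. The Y-linked Eif2s3y was at 1.29 to 1.63 in LSK cells and 9.21 to 9.70 in WT LICs, while Xist was at 12.45 to 12.69 in LSK cells. WT LIC arrays 1 and 2 thus carried both Xist and Y-linked signal, and array 3 mainly the latter. Sex and group cannot be told apart, and the source of the mixed signal was not tested. Ezh2 was at 11.26 to 11.44 in WT LICs and at 8.94 and 9.55 in Ezh2 KO LICs.

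WT LICs differed from LSK cells in 404 genes, more of them lower than higher. Over all genes 3.42% were called, and over the genes described 3.38%, or 1.27% higher (152 genes) and 2.11% lower (252 genes). The median difference of all genes was 0.02. Among the calls 319 changed at least 2-fold, 109 upwards and 210 downwards, and 39 rose and 94 fell at least 4-fold. No call had overlapping arrays, but the calls were picked on the same values, and the share over all genes was not counted. Centring each array on its median gave 468 calls, 248 higher and 220 lower, so the share of calls that were higher was 37.6% as deposited and 53% after centring, and which direction was the more frequent changed with the scaling. The count was 193, 193 and 191 without LSK array 1, 2 or 3, 163 and 164 without WT LIC array 1 or 2, and 612 without WT LIC array 3.

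**Figure D1:**
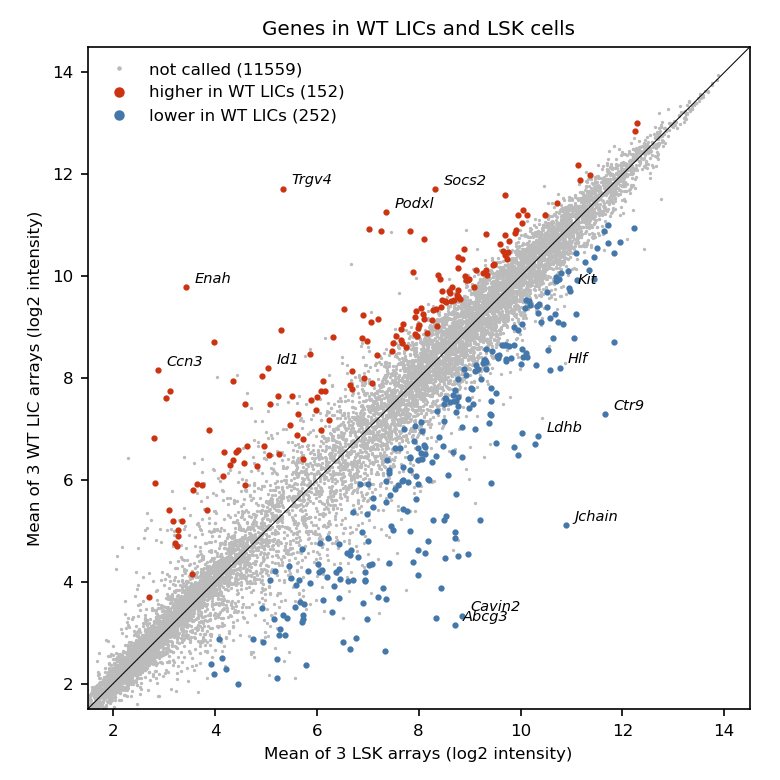
Each point is a gene; the x axis is the mean log2 intensity of 3 LSK arrays and the y axis that of 3 WT LIC arrays, with the line of equality. Genes called higher in WT LICs (152) and lower (252) are coloured; Enah, Ccn3 and Trgv4 lie farthest above the line, and Jchain, Abcg3, Cavin2 and Ctr9 far below it.

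Enah, an actin regulator that promotes filament elongation, was at 3.36, 3.15 and 3.81 in LSK cells and at 9.83, 10.32 and 9.22 in WT LICs. All LSK values were at background, so the rise was at least 54.9-fold (adjusted p = 0.000149); the 4 probe sets of the gene moved by between 0.25 and 6.35. Ccn3, a secreted matricellular growth regulator, was at 2.39, 3.33 and 2.90 against 8.09, 8.31 and 8.07, at least 17.7-fold (adjusted p = 0.000149). The WT LIC values of Ccn3 lay within a span far narrower than the gap to the LSK values. Trgv4, a variable segment of the T-cell receptor gamma locus, was at 3.52, 6.45 and 6.07 in LSK cells against 11.73, 12.23 and 11.20 (difference 6.38, SE 0.72, adjusted p = 0.00658), and its 3 probe sets moved by 0.18 to 6.38. Of 15 measured T and NK cell genes none rose and Klrd1 fell, while their summed intensity was 2566 to 3826 in LSK cells and 4830 to 5451 in WT LICs. The group means of Cd3d, Cd3g, Cd8a, Cd28, Gzma and Ncr1 were at background, and the part of such cells in the rise of Trgv4 was not tested.

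Podxl, which encodes the sialomucin podocalyxin, rose from 6.49, 7.44 and 8.15 to 11.26, 11.76 and 10.76 (difference 3.90, SE 0.44, adjusted p = 0.00658), with its other probe set at a difference of 0.76. Akr1c12, an aldo-keto reductase, rose from 6.71, 7.37 and 7.01 to 10.66, 11.69 and 10.40 (difference 3.89, SE 0.34, adjusted p = 0.00257). Ptgir, the prostacyclin receptor, went from 3.2, 4.69 and 5.17 to 7.79, 8.06 and 7.96 (difference 3.58, SE 0.46, adjusted p = 0.0109). The groups did not overlap for any of these, as the naming rule required. Ezh2 KO LICs lay near WT LICs, at 11.18 and 11.68 for Podxl, 10.33 and 10.56 for Akr1c12, and 7.97 and 7.53 for Ptgir. Scin, which encodes the actin-severing protein scinderin, rose by 3.63 (SE 0.58, adjusted p = 0.0225), with WT LIC values of 8.93, 10.10 and 7.77 against 5.17 to 5.42 in LSK cells; its call was lost without any 1 LSK array or WT LIC array 1 (adjusted p up to 0.0776).

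**Figure D2:**
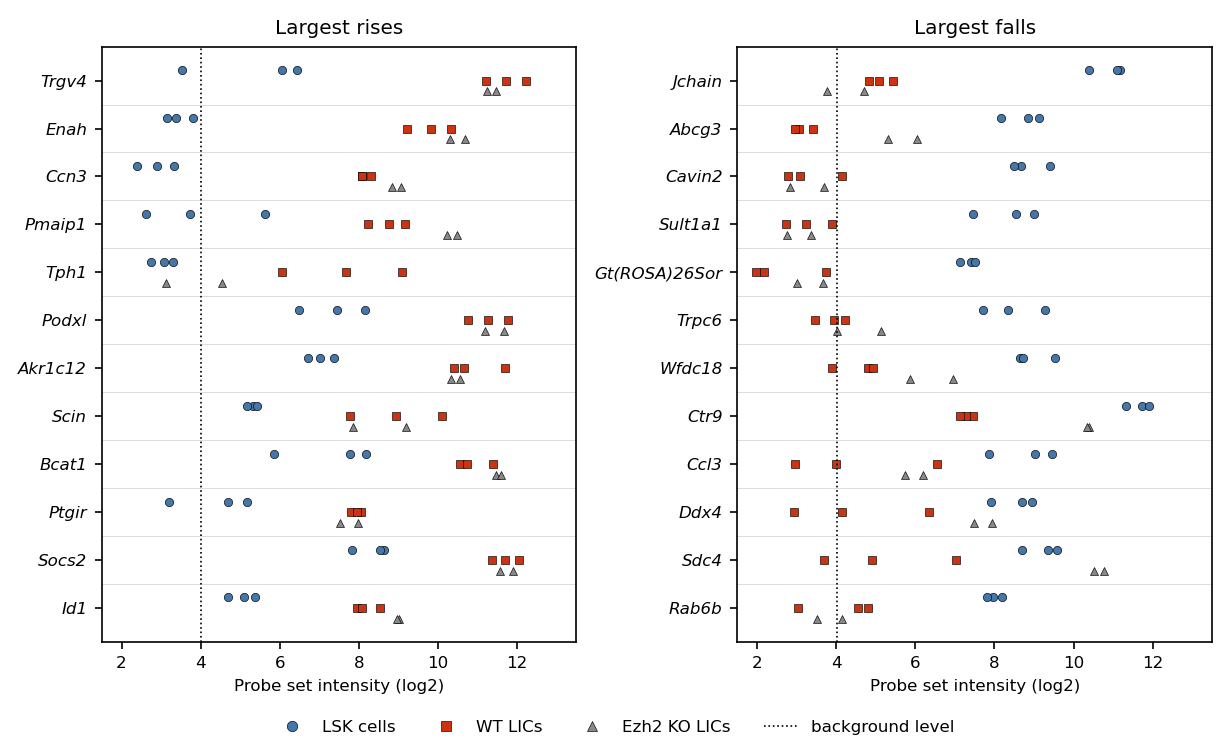
Log2 intensity on each array (x axis) of the 12 genes with the largest rises and the 12 with the largest falls under the naming rule; circles are LSK cells (3 arrays), squares WT LICs (3) and triangles Ezh2 KO LICs (2), and the dotted line is the background level of 4.01. The rule took only genes whose LSK and WT LIC values do not overlap, and for Sdc4 both Ezh2 KO values lie above every LSK value.

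Jchain, the joining chain of secreted antibody, was at 11.19, 10.40 and 11.09 in LSK cells and at 5.09, 4.83 and 5.44 in WT LICs (difference -5.77, SE 0.32, adjusted p = 0.000281). Of the other 10 measured markers of antibody-secreting cells none fell and Creld2 rose. Their summed intensity without Jchain was 2887 to 3270 in LSK cells against 2185 to 2705 in WT LICs, and the part of such cells in the fall was not tested. Abcg3, an ATP-binding cassette transporter gene, was at 8.84, 9.12 and 8.16 against 3.07, 3.42 and 2.95, all at background, which makes the drop at least 25.9-fold (adjusted p = 0.000263). Sult1a1, a phenol sulfotransferase, was at 7.46, 9.0 and 8.55 against 3.88, 3.25 and 2.74, a drop of at least 20.05-fold (adjusted p = 0.00261). The ROSA26 transcript Gt(ROSA)26Sor, a non-coding RNA of the locus much used for transgenes, was at 7.40, 7.51 and 7.14 against 3.75, 2.18 and 1.96, a drop of at least 10.1-fold (adjusted p = 0.00369). For these 3 genes every WT LIC array was at background and no LSK array was near it.

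Cavin2, a caveolar coat protein that platelets also hold, was at 9.40, 8.67 and 8.49 against 4.14, 3.09 and 2.77 (difference -5.51, SE 0.43, adjusted p = 0.00146), with 2 of the WT LIC arrays at background. Trpc6, a cation channel, fell by 4.57 (SE 0.46, adjusted p = 0.00398), Wfdc18, a secreted whey acidic protein domain gene, by 4.42 (SE 0.41, adjusted p = 0.0031), and Rab6b, a trafficking GTPase, by 3.85 (SE 0.45, adjusted p = 0.0078). In WT LICs 2 arrays were at background for Trpc6 and 1 each for Wfdc18 and Rab6b, so these differences are less certain in size. Ctr9, a subunit of the PAF1 transcription elongation complex, fell from 11.73, 11.33 and 11.92 to 7.47, 7.29 and 7.12 (difference -4.37, SE 0.19, adjusted p = 0.000149). Its 4 probe sets disagreed in size, with differences from -4.37 to -0.21, so the value belongs to the brightest probe set and not to the whole transcript. Ddx4, a germ-line RNA helicase, fell by 4.04 (adjusted p = 0.0382) and Sdc4, a heparan sulphate proteoglycan, by 4.01 (adjusted p = 0.0359). Both lost their call without any 1 LSK array or WT LIC array 1 or 2 (adjusted p up to 0.123 and 0.11), and both had scattered WT LIC values: 4.15, 2.94 and 6.34 for Ddx4, and 3.68, 4.90 and 7.03 for Sdc4, with 1 array at background in each.

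Across 31 pathway lists, 51 of 715 measured genes were called, or 7.13% against 3.38% of all genes described. The lists had been put together with earlier results of these data known, so this gap is not a result about them. Of all 11963 genes described, 2452 had an unadjusted p under 0.05 in limma, and such counts in the lists are to be set beside that. Counts of calls in any list are likewise to be set beside the 3.38% of all genes described, or 1.27% higher and 2.11% lower. Medians close to that of all genes changed size or sign when single arrays were left out, and no direction is read from them.

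**Figure D3:**
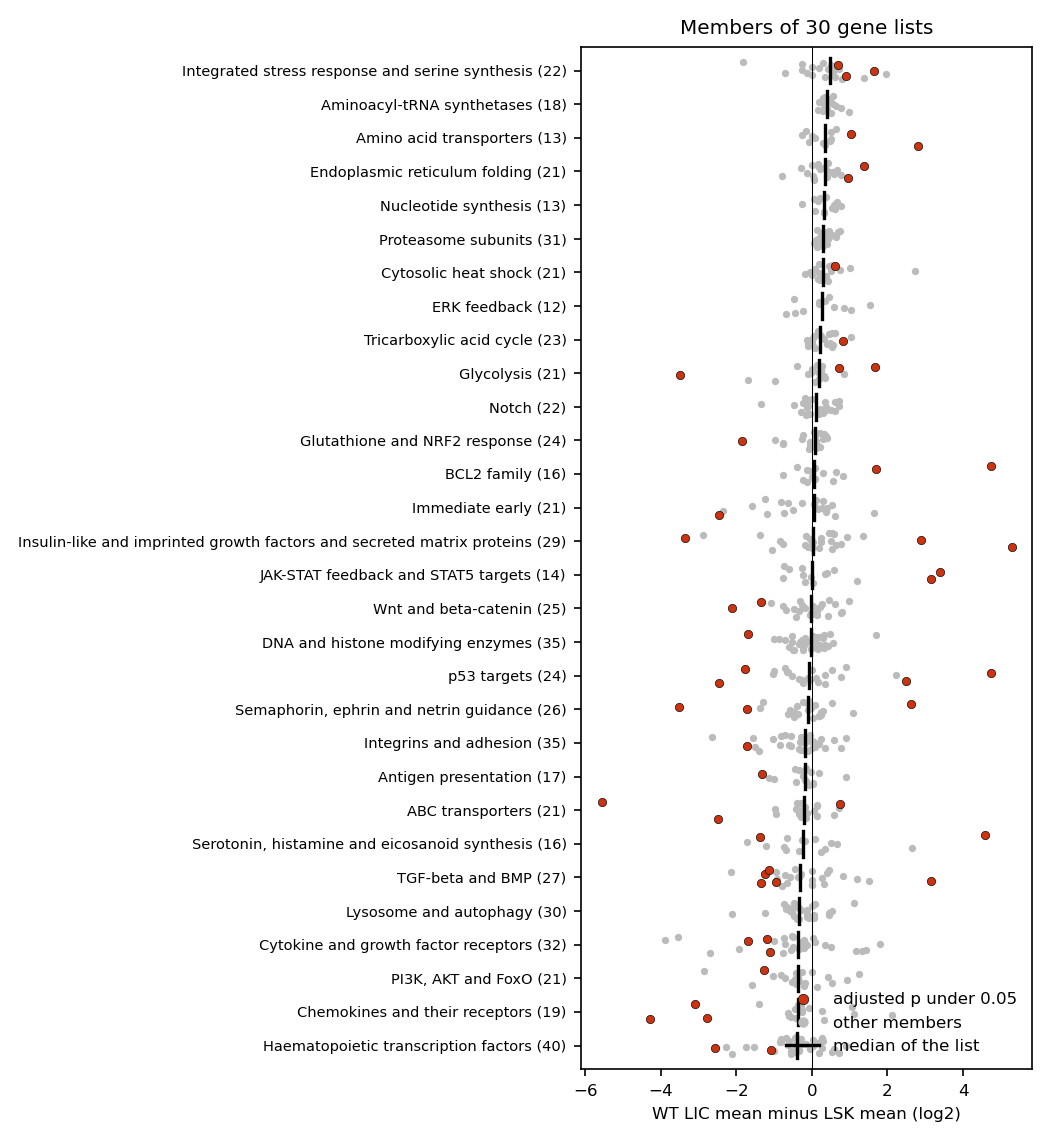
Difference between WT LIC and LSK means (x axis, log2) for every measured member of 30 gene lists, ordered by list median, with the number of measured members in brackets. Dark red points have an adjusted p under 0.05 and the bar is the list median; medians run from -0.39 for haematopoietic transcription factors to 0.47 for the integrated stress response and serine synthesis.

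Among 14 measured targets and components of the JAK-STAT pathway 2 rose and none fell. The other 12 did not pass, and the median was 0.01 against 0.02 over all genes. Socs2, a feedback inhibitor that STAT5 induces, was at 7.82, 8.63 and 8.53 in LSK cells and 11.38, 11.71 and 12.04 in WT LICs (difference 3.38, SE 0.27, adjusted p = 0.00163). Id1, an inhibitor of basic helix-loop-helix factors that STAT5 and BMP signals can each induce, was at 5.37, 5.08 and 4.70 against 7.96, 8.53 and 8.09 (difference 3.14, SE 0.22, adjusted p = 0.000957). Both genes were as high in Ezh2 KO LICs, at 11.57 and 11.90 for Socs2 and 9.02 and 8.96 for Id1. Cish, another STAT5-induced inhibitor, was at 8.10, 7.55 and 7.61 against 8.21, 9.17 and 9.43, a difference of 1.18 that did not pass (adjusted p = 0.0981). Pim1, a kinase gene downstream of STAT5, differed by -0.03 (adjusted p = 0.952), and the components Jak2, Stat5b and Stat5a by -0.78, -0.75 and -0.26, none of which passed. Feedback genes of the ERK branch gave no call in either direction among 12, with differences from -0.69 to 1.54 and 3 genes at an unadjusted p under 0.05 in limma. Their median of 0.27 was 0.03 without LSK array 2 and 0.17 without WT LIC array 3, when 1 gene fell.

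Of 21 genes of PI3K, AKT and FoxO signalling, 1 fell, none rose and 20 did not pass, with a median of -0.37; without WT LIC array 3 there was 1 fall and 2 rises. Txnip, a FoxO- and glucose-regulated inhibitor of thioredoxin and of glucose uptake, was at 12.54, 11.90 and 12.21 against 10.77, 11.17 and 10.91 (difference -1.27, SE 0.20, adjusted p = 0.0221); it was not called without LSK array 1 or 3 or WT LIC array 1 (adjusted p up to 0.0769). The largest difference in the list was that of Trib2, a pseudokinase gene, at -2.84, which did not pass. Outside the lists, and chosen after its values were seen, Phlpp1, a phosphatase that dephosphorylates AKT, fell from 9.59, 9.88 and 9.94 to 8.32, 8.39 and 8.48 (difference -1.41, SE 0.14, adjusted p = 0.00411). It kept its call under each of 16 alternatives. In Ezh2 KO LICs Phlpp1 was at 9.87 and 9.88, within the LSK range. That was higher than in WT LICs by 1.48 (adjusted p = 0.0129 in limma).

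Of 32 measured receptors for cytokines and growth factors 3 fell, none rose, and the median was -0.36. The calls were 9.38% of the list, against 3.38% of all genes described. Kit, which binds stem cell factor and was part of the gate in both groups, was at 11.04, 10.90 and 10.92 against 9.79, 9.81 and 9.69 (difference -1.19, SE 0.14, adjusted p = 0.00886). Il6ra, the interleukin 6 receptor, was at 7.58, 7.78 and 7.71 against 6.12, 5.76 and 6.14 (difference -1.68, SE 0.15, adjusted p = 0.00276), with a second probe set at -0.07. Csf2ra, the receptor subunit for GM-CSF, fell by 1.11 (SE 0.21, adjusted p = 0.0366), a call lost without any 1 LSK array or WT LIC array 1 or 2 (adjusted p up to 0.112). The other large differences, -3.90 for Il7r, -3.55 for Tek, -2.69 for Csf1r and -1.92 for Flt3, did not pass. Without WT LIC array 3 the list gave 6 falls and 1 rise.

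In TGF-beta and BMP signalling, 4 of 27 measured genes fell and Id1 rose, with a median of -0.32. The 4 that fell were receptors and an inhibitor. Tgfbr2, the ligand-binding TGF-beta receptor, was at 9.51, 9.58 and 9.65 against 8.2, 8.36 and 8.77 (difference -1.13, SE 0.18, adjusted p = 0.0219), and its 3 probe sets ranged from -1.13 to 0.39. Eng, the co-receptor endoglin, was at 9.09, 9.19 and 9.03 against 8.19, 7.95 and 8.28 (difference -0.96, SE 0.15, adjusted p = 0.0203), with its second probe set at -1.44. Bmpr2, the BMP type II receptor, fell by 1.35 (SE 0.23, adjusted p = 0.0266) and Smad7, an inhibitor of TGF-beta receptors, by 1.24 (SE 0.23, adjusted p = 0.0347). Id1, a classic target of BMP receptors, thus moved opposite to 2 of their genes. These 4 falls were near the threshold. None was called without LSK array 1 or 2 or WT LIC array 1 or 2, and Bmpr2 alone of the 4 was called without LSK array 3. The list median was -0.21 without WT LIC array 1, and without WT LIC array 3 there were 5 falls and 3 rises.

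**Figure D4:**
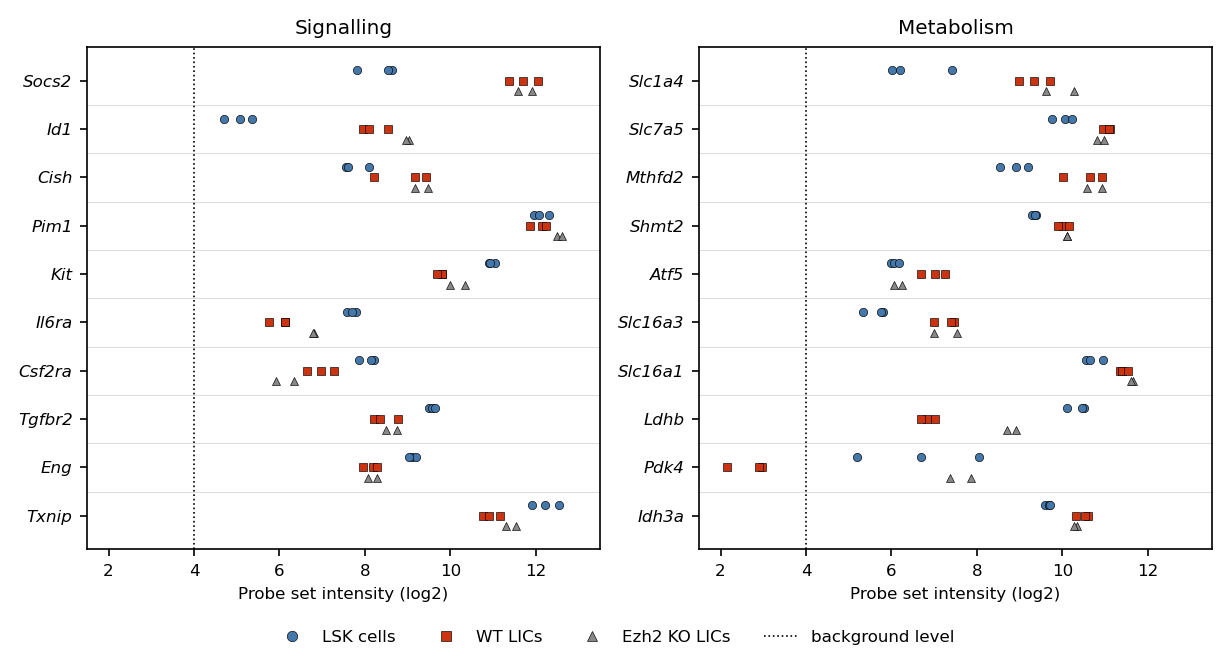
Log2 intensity on each array (x axis) for signalling genes (left) and metabolic genes (right); circles are LSK cells (3 arrays), squares WT LICs (3), triangles Ezh2 KO LICs (2), and the dotted line is the background level. Socs2, Id1, Slc1a4 and Slc16a3 lie to the right in WT LICs, Kit, Il6ra, Ldhb and Pdk4 to the left, while Pim1 values overlap.

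Of 25 Wnt genes 2 fell and none rose: Tcf7l2, a partner of beta-catenin, by 1.34 (adjusted p = 0.0407), and the receptor Fzd8, with every WT LIC array at background, at least 1.91-fold (adjusted p = 0.0493). Both lost their call when single arrays were left out, Tcf7l2 without any 1 LSK array or WT LIC array 1 or 2, Fzd8 without LSK array 2 or any 1 WT LIC array. None of 22 Notch genes was called, with 4 at an unadjusted p under 0.05 in limma; without WT LIC array 3 there was 1 rise and 1 fall.

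Of 19 chemokine and chemokine receptor genes 3 fell and none rose (median -0.38), and without WT LIC array 3 there were 2 falls and 2 rises. The calls were 15.8% of the list, against 3.38% of all genes described. Pf4, a platelet chemokine that restrains stem cell division, was at 10.34, 10.29 and 9.42 against 7.47, 7.18 and 6.14 (difference -3.09, SE 0.41, adjusted p = 0.0118). Ccl4, an inflammatory chemokine, was at 6.85, 5.58 and 6.90 against 4.03, 3.24 and 3.76 (difference -2.77, SE 0.38, adjusted p = 0.0137). Ccl3, which binds receptors in common with Ccl4, was at 7.86, 9.02 and 9.44 against 6.56, 2.95 and 3.99 (difference -4.27, SE 0.87, adjusted p = 0.0465); its call was lost without any 1 LSK array or WT LIC array 2 or 3 (adjusted p up to 0.132). Of the other 10 measured megakaryocyte markers Cavin2, Treml1 and Gp9 fell and none rose. Their summed intensity without Pf4 was 1227 to 1755 in LSK cells against 319 to 784 in WT LICs, and their part in the fall of Pf4 was not tested. Itgb3 was at background, and Itga2b, the platelet integrin, differed by 0.05 with an adjusted p of 0.941.

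Single genes of amino acid uptake and of one-carbon metabolism rose. Slc1a4, a transporter of serine, alanine and other neutral amino acids, was at 7.41, 6.20 and 6.01 in LSK cells against 9.35, 9.72 and 8.97 in WT LICs (difference 2.81, SE 0.40, adjusted p = 0.0151). Slc7a5, the large neutral amino acid transporter that brings in leucine, was at 10.07, 10.22 and 9.75 against 10.94, 11.12 and 11.10 (difference 1.04, SE 0.16, adjusted p = 0.0208). The 3 probe sets of Slc1a4 moved by 0.12 to 2.81, and its call was lost without LSK array 2 or WT LIC array 1 or 2 (adjusted p up to 0.0566); that of Slc7a5 was lost without LSK array 1 or 3 or WT LIC array 1 or 2 (up to 0.0774). The other 11 of 13 measured amino acid transporters did not pass, and the median was 0.35. Bcat1, which transfers the amino group of branched-chain amino acids, was at 8.17, 5.84 and 7.78 against 10.55, 10.74 and 11.38 (difference 3.62, SE 0.57, adjusted p = 0.0218), and lost its call without WT LIC array 1 or 2 (adjusted p up to 0.0668). Got1, the cytosolic aspartate aminotransferase, picked here with its values in view, was at 7.8, 7.71 and 7.45 against 8.73, 8.85 and 8.64 (difference 1.09, SE 0.14, adjusted p = 0.0118), and kept its call under each of 16 alternatives.

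Genes of the integrated stress response and serine synthesis, many of them targets of the factor ATF4, had the highest median of the lists, 0.47: 3 of 22 rose, none fell and 19 did not pass. Mthfd2, the mitochondrial one-carbon enzyme, was at 9.20, 8.53 and 8.91 against 10.65, 10.92 and 10.02 (difference 1.65, SE 0.28, adjusted p = 0.0263). Shmt2, which passes a carbon from serine to that pathway, was at 9.29, 9.38 and 9.36 against 10.02, 9.89 and 10.16 (difference 0.68, SE 0.13, adjusted p = 0.0361). Atf5, a stress-induced transcription factor, rose by 0.90 (SE 0.17, adjusted p = 0.0368), while Ezh2 KO LICs were at 6.24 and 6.07, close to the LSK values of 5.99 to 6.17. Asns, the asparagine synthetase gene, was at 11.54 and 11.01 on WT LIC arrays 1 and 2 but at 9.04 on replicate 3, against 9.07 to 9.22 in LSK cells, and did not pass (adjusted p = 0.23). Without WT LIC array 3 the list gave 4 rises and 1 fall, with neither Shmt2 nor Atf5 called. Without LSK array 2 or 3 or WT LIC array 2 it gave none, and 1 without LSK array 1 or WT LIC array 1. The call of Shmt2 was lost without any 1 of the 6 arrays (adjusted p up to 0.105). That of Atf5 was lost without any 1 LSK array or WT LIC array 2 or 3 (up to 0.114). That of Mthfd2 was lost without LSK array 2 or 3 or WT LIC array 1 or 2 (up to 0.0921).

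Promoter sequence is shown for Slc1a4 and Got1, since both genes rose, both handle amino acids, and both hold letters of the amino acid response element (TGATGNAA, searched on both strands) close to their start. Another promoter, that of Shmt2, holds the STAT5 letters TTCNNNGAA. The promoters of Cish and Mthfd2 held no match to these letters, and Socs2, Id1 and Slc7a5 had no promoter sequence to search. Sequences are from the RefSeq promoter table of GRCm38.p6, which held 9526 of the genes described and covers 250 bases before to 50 bases after each start; capitals mark the matched letters, and each line reads 5′ to 3′ on the gene's strand.
Slc1a4, chr11:20332709-20332777, minus strand, match 4 bases before the start: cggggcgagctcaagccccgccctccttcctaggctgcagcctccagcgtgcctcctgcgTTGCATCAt
Got1, chr19:43524680-43524767, minus strand, match 102 bases before the start: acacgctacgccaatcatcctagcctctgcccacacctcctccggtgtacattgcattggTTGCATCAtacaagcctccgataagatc
Shmt2, chr10:127522471-127522559, minus strand, match 55 bases before the start: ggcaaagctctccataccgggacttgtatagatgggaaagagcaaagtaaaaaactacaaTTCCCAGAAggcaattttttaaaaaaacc
Distances are to the first base of each match, so the match of Slc1a4 begins before the start and runs across it. In each of the 2 amino acid genes the match lies on the opposite strand to the letters as spelled. These matches are a description of these windows and not of binding. The amino acid response letters occurred in 3.10% of all genes with an entry, 3.36% of the 119 that rose and 3.12% of the 192 that fell. The STAT5 letters occurred in 8.50%, 4.20% and 6.25% of the same groups. ETS letters (GGAAGT) were in 30.0%, 33.6% and 26.6%, E box letters (CACGTG) in 10.8%, 13.4% and 9.38%, CRE letters (TGACGTCA) in 3.04%, 0% and 2.08%, and sterol element letters (TCACNCCAC) in 1.48%, 1.68% and 3.12%. TGATGNAA and TGACGTCA can overlap in part.

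Lactate and pyruvate handling changed at single steps. Ldhb, the lactate dehydrogenase subunit that favours lactate to pyruvate, was at 10.12, 10.49 and 10.45 in LSK cells and at 6.84, 6.70 and 7.02 in WT LICs (difference -3.50, SE 0.16, adjusted p = 0.000149). Its level was thus 11.3-fold lower, its 4 probe sets ranged from -3.59 to -3.46, and it was called without each array in turn. The other subunit gene, Ldha, differed by 0.32 and did not pass (adjusted p = 0.25). Slc16a3, a monocarboxylate transporter that exports lactate, was at 5.79, 5.75 and 5.33 against 7.47, 7.39 and 7.0 (difference 1.66, SE 0.22, adjusted p = 0.0124), also called without each array in turn. Slc16a1, a monocarboxylate transporter that carries lactate in either direction, rose by 0.71 (SE 0.15, adjusted p = 0.0485), a call lost without any 1 of the 6 arrays (adjusted p up to 0.133). The other 18 of 21 glycolysis genes did not pass, and their list median, 0.19, was 0.09 without WT LIC array 1.

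Pdk4, a kinase that shuts pyruvate out of the mitochondrial cycle, was at 8.06, 6.69 and 5.19 against 2.97, 2.15 and 2.91, all at background, a drop of at least 6.22-fold (adjusted p = 0.0244), and Pdk2, a kinase of the same family, fell by 2.01 (SE 0.39, adjusted p = 0.0388). Both were chosen after their values were seen. Pdk4 lost its call without LSK array 2 or WT LIC array 1 or 2 (adjusted p up to 0.0823), Pdk2 without any 1 LSK array or WT LIC array 1 or 2 (up to 0.11), and in Ezh2 KO LICs Pdk4 was at 7.36 and 7.86. Of 23 genes of the tricarboxylic acid cycle, Idh3a, a subunit of isocitrate dehydrogenase, rose, from 9.58, 9.68 and 9.70 to 10.61, 10.54 and 10.31 (difference 0.83, SE 0.13, adjusted p = 0.0225), none fell and the median was 0.21; without WT LIC array 3 there were 2 rises. Its 3 probe sets ranged from 0.22 to 0.83, and it was not called without any 1 LSK array or WT LIC array 1 or 2 (adjusted p up to 0.0837). Of 24 glutathione and NRF2 genes, Gstt1, a glutathione transferase, fell by 1.85 (SE 0.35, adjusted p = 0.0366), with a list median of 0.07. This call was 4.17% of the list, near the 3.38% of all genes described. Only the fits without LSK array 3 kept it among those that leave out an array.

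Genes that make and remove proteins differed by small amounts with like signs. All 31 proteasome subunits had a positive difference (0.04 to 0.75, median 0.30), as did all 18 aminoacyl-tRNA synthetases, which load tRNAs (0.16 to 0.97, median 0.39), and 12 of 13 nucleotide synthesis genes (median 0.33). No gene of these 3 lists was called. An unadjusted p under 0.05 in limma was found for 10, 9 and 5 of them, against 2452 of all 11963 genes described. Over all genes described 52.4% of differences were positive, and over those with a mean above 10 it was 55.3%, with a median of 0.04. By array, the proteasome median against the LSK mean was 0.49, 0.29 and 0.11 in WT LICs and -0.06 to 0.03 in LSK cells; that of the synthetases was 0.65, 0.47 and 0.20, against -0.09 to 0.03. WT LIC array 1 was highest and replicate 3 lowest in both, without overlap with LSK arrays. The proteasome median was 0.19 without WT LIC array 1, and cyclic loess left 30 of the 31 positive. Without WT LIC array 3, 1 proteasome gene and 2 synthetases rose.

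The few calls among folding genes were upwards. They came to 9.52% of the endoplasmic reticulum list and 4.76% of the cytosolic heat shock list, against 3.38% of all genes described. Of 21 genes of folding in the endoplasmic reticulum 2 rose, none fell and the median was 0.35: Creld2, a stress-induced resident protein, by 0.96 (SE 0.18, adjusted p = 0.0363), and Sdf2l1, a chaperone cofactor, by 1.38 (SE 0.28, adjusted p = 0.0465). Hsph1, which exchanges nucleotide on HSP70, rose by 0.60 (SE 0.12, adjusted p = 0.0461) as the only call among 21 cytosolic heat shock genes (median 0.30). These 3 calls were each lost without any 1 of the 6 arrays (adjusted p up to 0.114, 0.137 and 0.133). Lysosome and autophagy genes leaned the other way, with a median of -0.34 and no call among 30; 12 of them had an unadjusted p under 0.05 in limma, and the median was -0.21 without LSK array 2 and -0.20 without WT LIC array 2.

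Among regulators of cell death, 2 of 16 BCL2 family genes rose and none fell (median 0.07). Pmaip1, which encodes the pro-death protein Noxa, was at 2.61, 3.73 and 5.62 against 8.22, 8.75 and 9.17 (difference 4.73, SE 0.69, adjusted p = 0.0167), with 2 LSK arrays at background. Bok, a BAX-like protein gene, was at 4.94, 5.59 and 4.37 against 6.20, 6.60 and 7.21 (difference 1.70, SE 0.35, adjusted p = 0.0494). Pmaip1 lost its call without LSK array 2 or WT LIC array 2 (adjusted p up to 0.0594), Bok without LSK array 1 or 3 or any 1 WT LIC array (up to 0.123). Bcl2, Bcl2l1 and Mcl1, which protect cells, differed by 0.09, 0.04 and -0.40 and did not pass.

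Targets of p53 split. Of 24 measured, Cdkn1a and Pmaip1 rose, Trp53inp1 and Btg2 fell, 20 did not pass, and the median was -0.08. Cdkn1a, an inhibitor of cyclin-dependent kinases, was at 6.06, 6.0 and 6.91 against 8.63, 8.63 and 9.17 (difference 2.49, SE 0.31, adjusted p = 0.00979). Btg2, an antiproliferative immediate early gene, was at 7.11, 8.15 and 7.21 against 5.35, 4.86 and 4.86 (difference -2.47, SE 0.30, adjusted p = 0.00948). Trp53inp1, which encodes a stress protein of autophagy and cell death, was at 10.90, 10.66 and 10.95 against 8.74, 9.12 and 9.34 (difference -1.77, SE 0.19, adjusted p = 0.00571). All 3 were called without each array in turn. Btg2 was the only call among 21 immediate early genes, whose median was 0.06; without WT LIC array 3 there was 1 fall and 1 rise.

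Of 40 transcription factors of blood cells 2 fell, none rose, and the median was -0.39. The calls were 5% of the list, near the 3.38% of all genes described. Without WT LIC array 3 there were 5 falls and 1 rise, and with quantile normalization 4 falls and 1 rise. Hlf, a factor of stem cells, was at 10.85, 10.82 and 10.64 against 7.50, 8.32 and 8.79 (difference -2.57, SE 0.34, adjusted p = 0.0124). Gata3, a factor of T cells also found in stem cells, was at 7.16, 6.68 and 7.20 against 5.82, 5.94 and 6.0 (difference -1.09, SE 0.19, adjusted p = 0.0276), a call lost without LSK array 1 or 3 or WT LIC array 1 or 2. Of 35 enzymes that modify DNA or histones Tet1, which oxidises methylcytosine, fell by 1.69 (SE 0.32, adjusted p = 0.0367), from 6.88, 5.91 and 6.53 to 4.83, 5.22 and 4.20. That call was lost without LSK array 1 or 3 or WT LIC array 1 or 2 (adjusted p up to 0.112), and Ezh2 itself differed by 0.42 (adjusted p = 0.265). Calls were 2.86% of these 35 enzymes, near the 3.38% of all genes described. Without WT LIC array 3 the list had 1 fall and 1 rise.

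Genes of adhesion, shape and guidance had few calls, several of them large. Among 26 semaphorin, ephrin and netrin genes, Sema4a, a membrane semaphorin of immune cells, rose by 2.62 (SE 0.36, adjusted p = 0.0137), from 6.39, 6.25 and 4.93 to 8.33, 8.52 and 8.58, and its call was at the threshold at its weakest (adjusted p up to 0.05 with an array left out). Plxnc1, a semaphorin receptor, fell from 10.19, 9.97 and 10.19 to 8.46, 8.52 and 8.24 (difference -1.71, SE 0.14, adjusted p = 0.00201), and all 4 probe sets fell, by 1.07 to 2.48. Robo4, a receptor of stem and endothelial cells, fell by 3.50 (SE 0.54, adjusted p = 0.0206), with 2 of the WT LIC arrays at background and a call lost without LSK array 2 or 3 or WT LIC array 1. Of 35 integrin and adhesion genes F11r, a junction protein, fell by 1.71 (SE 0.25, adjusted p = 0.0171), with its second probe set at 0.03; without WT LIC array 1 or 2 no gene of the list was called, and without WT LIC array 3 there were 2 falls.

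In growth factors and matrix proteins, 2 of 29 rose and 1 fell, with a median of 0.04. Beside Ccn3, Igfbp7, a secreted binder of insulin-like growth factors, rose from 4.92, 5.28 and 3.60 to 7.33, 7.48 and 7.66 (difference 2.89, SE 0.40, adjusted p = 0.0137), with 3 probe sets from 0.28 to 2.89. Mmp2, a gelatinase, was at 8.60, 7.14 and 8.23 against 4.75, 5.66 and 3.48 (difference -3.36, SE 0.58, adjusted p = 0.0293); the call was lost without LSK array 1 or 3 or WT LIC array 1. Among 21 ABC transporters, Abca1, which exports cholesterol, fell by 2.49 (SE 0.27, adjusted p = 0.00557), although its 3 probe sets ranged from -2.49 to 0.64 and their mean gave -0.50 (adjusted p = 0.118). Abcf2, a ribosome-linked member, rose by 0.74 (SE 0.13, adjusted p = 0.0306), lost without any 1 LSK array or WT LIC array 1 or 2. Of 17 antigen presentation genes, H2-Oa, a brake on class II loading, fell by 1.31 (SE 0.27, adjusted p = 0.0494), lost without LSK array 1 or 3 or any 1 WT LIC array.

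Markers of maturing lineages differed among the WT LIC arrays themselves. Of 11 erythroid genes none was called in either direction over the 3 WT LIC arrays, and 6 rose without WT LIC array 3: Epor, Ermap, Klf1, Rhag, Rhd and Tfrc. Klf1, a master factor of red cells, was at 7.23, 7.73 and 7.82 in LSK cells, and at 10.78, 9.81 and 4.89 on WT LIC arrays 1, 2 and 3. Rhag, a red-cell membrane protein gene, was at 4.99 to 5.18 against 8.89, 8.13 and 3.65, a difference of 1.79 (adjusted p = 0.456) with replicate 3 and 3.41 (adjusted p = 0.00307) without it. Replicate 3 was below every LSK array in both genes, and replicates 1 and 2 above every one. Car1, carbonic anhydrase 1, was at 11.71 and 10.48 on replicates 1 and 2, near the LSK levels of 10.55 to 11.23, but at 2.70 on replicate 3. The erythroid sums were 10420 to 10998 in LSK cells against 5895 to 21719 in WT LICs, and Hba-a1, an alpha globin, was at background throughout. In the Ezh2 KO LICs Rhag was at 3.58 and 2.98.

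**Figure D5:**
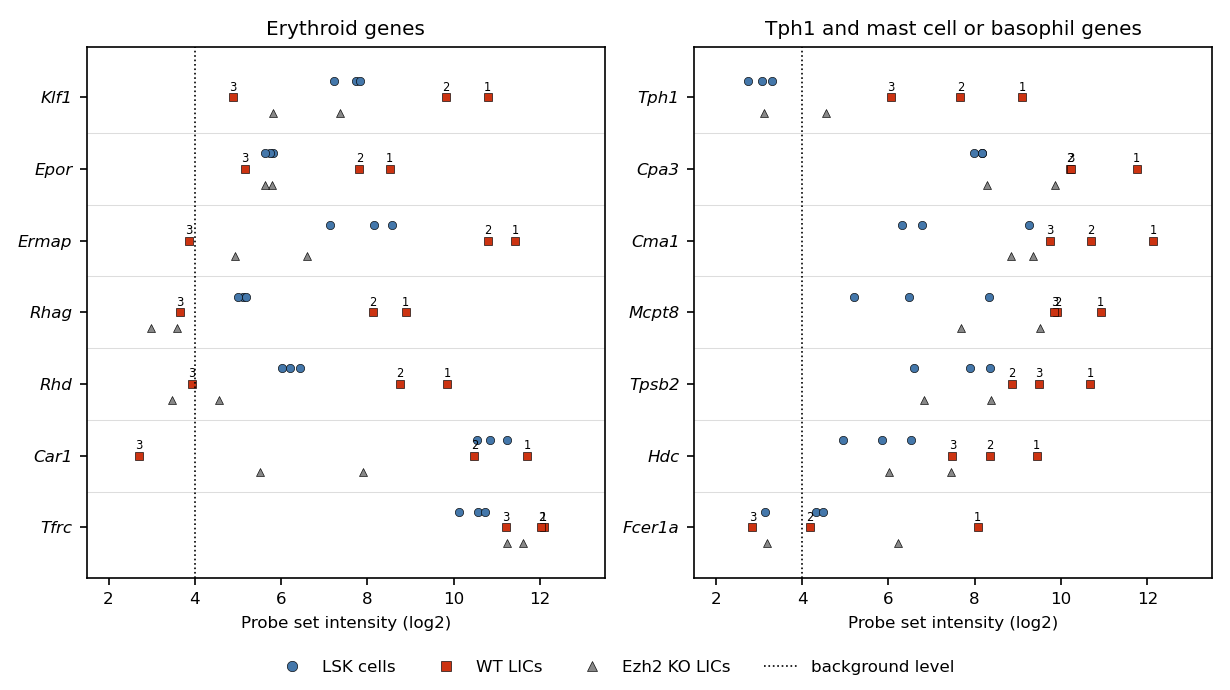
Log2 intensity on each array (x axis) of erythroid genes (left) and of Tph1 with mast cell or basophil genes (right); circles are LSK cells (3 arrays), squares WT LICs with the replicate number above, triangles Ezh2 KO LICs (2), and the dotted line is the background level. WT LIC array 3 lies to the left of all LSK values for Klf1, Epor, Ermap, Rhag, Rhd and Car1, and WT LIC array 1 lies farthest to the right for all 7 genes on the right.

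Tph1, the first enzyme of serotonin synthesis outside the brain, was at background on all LSK arrays (3.30, 3.06 and 2.74) and at 9.10, 7.67 and 6.05 in WT LICs, at least 12.1-fold higher (adjusted p = 0.0222). Its call was lost without any 1 LSK array or WT LIC array 2 (adjusted p up to 0.0739), and Ezh2 KO LICs were at 4.55 and 3.12. Of 9 mast cell and basophil genes 8 had a positive difference, with a median of 2.06. Tpsab1, a tryptase, and Cpa3, a carboxypeptidase of mast cell granules, rose by 1.54 and 2.63 (adjusted p = 0.0118 and 0.04). By array, the list median against the LSK mean was 3.65, 1.35 and 1.71 in WT LICs. It was 1.76 and 0.19 in Ezh2 KO LICs. WT LIC arrays 2 and 3 were thus in the reverse order to that of Tph1. The summed intensity of the 9 genes was 3737 to 4304 in LSK cells, 5640 to 15355 in WT LICs and 3945 to 5149 in Ezh2 KO LICs. Cpa3 was at 11.75 on WT LIC array 1 against 10.21 and 10.23 on replicates 2 and 3, and the group means of Ms4a2, a subunit of the IgE receptor, were at background. The part of these cells in the rise of Tph1 was not tested. Cpa3 lost its call without any 1 LSK array or WT LIC array 1 or 2 (adjusted p up to 0.11). Tbxas1, thromboxane synthase, fell by 1.38 (SE 0.18, adjusted p = 0.0113), the other call among 16 genes of serotonin, histamine and eicosanoid synthesis.

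Of 12 neutrophil genes Ms4a3, a marker of granulocyte and monocyte progenitors, rose by 1.9 (adjusted p = 0.0494), a call lost without any 1 of the 6 arrays, and without WT LIC array 3 there were 2 rises. The neutrophil differences were positive in 11 of the 12 genes, with a median of 0.68 and a summed intensity of 13752 to 15266 in LSK cells against 18980 to 22034 in WT LICs. By array, the list median against the LSK mean was 1.15, 1.38 and 0.12 in WT LICs and -0.07 to 0.21 in LSK cells. WT LIC array 3 thus lay within the LSK range. The highest difference was that of Lcn2, a secreted granule protein, at 3.99 (adjusted p = 0.0507). The lowest was that of Mpo, the myeloperoxidase of early myeloid granules, at -0.08, and neither passed. B cell genes gave no call among 13 and eosinophil genes none among 6, with 4 and 1 at an unadjusted p under 0.05 in limma and 4 in each list at background; without WT LIC array 3, 2 B cell genes fell. Of 13 monocyte and dendritic cell genes 2 fell, Lyz2, a lysozyme, by 1.48 and F13a1, a coagulation factor subunit, by 2.26; without WT LIC array 3 there were 5 falls, and F13a1 lost its call without any 1 of the other arrays. Of 14 endothelial and stromal genes Emcn and Tie1, surface proteins also found on stem cells, fell by 3.02 and 1.81, and the group means of 9 were at background, Cdh5, Kdr, Cxcl12 and Lepr among them. Tie1 lost its call without any 1 LSK array or WT LIC array 1 or 3.

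Between Ezh2 KO and WT LICs, which share the WT LIC arrays with the comparison above, 0.627% of the genes described were called (75 genes). Levels of the named genes in the knockout are set beside those of the other groups where they stand apart. For Ldhb the knockout arrays were at 8.70 and 8.90, between the WT LIC and LSK levels. Ctr9 was at 10.39 and 10.34, also between them, and Trp53inp1, at 10.64 and 10.91, lay within or next to the LSK range.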

How the data were processed

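The deposited series table held linear intensity values of 22690 probe sets on 8 Affymetrix arrays, per the submitters' processing notes made by the authors with RMA (version not given in the sources used here). Per the labels' protocols, RNA of sorted cells was amplified with a chimeric primer before biotin labelling. The deposited intensities ran from 1.94 to 19343.1, although log2 values had been assumed in the design; they were turned into log2 with no pseudocount and the test was kept. After 64 controls were removed, only the 20380 probe sets annotated with a single symbol were used, not the 691 with more than 1 symbol or the 1555 absent from the annotation table. The brightest probe set over 8 arrays stood for each gene, with no dim filter. Chromosomes came from RefSeq GRCm38.p6; no build is stated for the arrays. Background was set from 27 bacterial control probe sets without a spike, at the highest of their means; where all 3 arrays of the dimmer group lay at or under it, values there were raised to it and the fold is "at least".

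All 3 groups were fitted together in limma 3.58.1 (R 4.3.3; lmFit, eBayes; 2-sided; 5 residual degrees of freedom), as tested on simulated data. Exact permutation of 3 against 3 arrays cannot go below p = 0.1 and was not used. The genes, lists and tests were chosen with earlier results of these data known. Named genes were the 12 largest rises and 12 largest falls among calls with separate arrays and a higher group mean above 7.16, the median of all genes (predicted, histone and small RNA genes passed over), up to 3 called members with the smallest p of each of 31 lists (1 of which is not reported here), genes of either kind that differed between Ezh2 KO and WT LICs, and Ezh2, Kit, Ly6a, Cish, Socs2 and Pim1; other genes are marked in the text or belong to marker lists and list ranges. Same-numbered repeats did not deviate together (correlations -0.051, -0.017 and -0.019), and the numbers were not used to pair samples in the main fit. With 3 arrays in each group these correlations cannot show whether same-numbered repeats were handled together. No scan date or batch was given. Plots used matplotlib 3.10.9.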

Additional observations from a re-analysis of the deposited data

Results flagged for a closer look

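Among the genes picked by the naming rule, 5 that fell in WT LICs also passed the test of Ezh2 KO against WT LICs in limma. Other called genes, Pdk4, Phlpp1, Gas6 and Dsc2 among them, passed it too. Both comparisons use the same WT LIC arrays, so a low value there moves both. Ctr9 was higher in Ezh2 KO LICs by 3.07 (log2, adjusted p = 0.00274), at 10.39 and 10.34 against 7.47, 7.29 and 7.12, for the brightest of 4 probe sets. Ldhb was higher by 1.95 (adjusted p = 0.00895), at 8.70 and 8.90 against 6.84, 6.70 and 7.02. Abcg3 was higher by 2.53 (adjusted p = 0.0261), at 6.04 and 5.31 against WT LIC values at background. Trp53inp1 was higher by 1.71 (adjusted p = 0.021). Sdc4 was higher by 5.45 (adjusted p = 0.0437), at 10.77 and 10.53 against 3.68, 4.90 and 7.03.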

How the results depend on the processing

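The count of 404 genes called was 884 with array weights and 239 with the repeat number as a replicate block, and it lay between 163 and 612 when 1 array was left out; of the 239, 204 were among the 404. With every probe set tested on its own, 520 probe sets were called, which held 349 of the 404 genes. The count ran from 311 to 590 under the other settings, with 311 for the 6 arrays fitted alone (271 shared), 520 above the 40th percentile of brightness, 550 with the mean of all probe sets and 590 with a trended robust prior. The share of calls that were higher was 53% after median centring and 27.6% to 41.0% with 1 array left out, and changed by under 10 percentage points otherwise. The block changed the call of 21 of 65 named called genes, of which 31 kept their call under every setting; the 6 arrays alone changed 17 and the mean of all probe sets 8. No named gene changed direction while called. List medians moved by over the spread of the arrays in 15 comparisons with a setting and by less in 481. Dim genes limit the bounds: 16 rises and 34 falls had every array of the dimmer group at background.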

Other observations

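Several called genes outside the lists, chosen after their values were seen, kept their call under each alternative run. Junction and keratin genes went in both directions. Tjp1, a tight junction scaffold, was at 8.24, 7.34 and 7.90 in LSK cells and 10.88, 10.94 and 10.85 in WT LICs (difference 3.07, SE 0.24, adjusted p = 0.00163). Krt18, a keratin of simple epithelia, was at 11.07, 11.06 and 11.02 against 8.81, 8.97 and 8.60 (difference -2.25, SE 0.15, adjusted p = 0.00073). Dsc2, a desmosomal cadherin, was at 6.06, 4.42 and 5.19 against 2.04, 1.72 and 2.56, all at background.

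Secreted factors and nuclear regulators were among the falls. Apoe, a lipid carrier, was at 8.48, 8.11 and 8.25 against 5.52, 4.99 and 5.12 (difference -3.07, SE 0.18, adjusted p = 0.000402), and Gas6, the ligand of the TAM receptors, was at 5.97, 6.15 and 5.22 against 2.19, 1.89 and 3.00, all at background (adjusted p = 0.00502). Ghr, the growth hormone receptor, was at 7.37, 6.38 and 7.18 against 3.41, 3.89 and 2.52 (adjusted p = 0.00557). Hnf4a, a nuclear receptor best known in liver, fell from 10.50, 9.79 and 10.57 to 6.38, 6.0 and 7.72 (difference -3.58, SE 0.45, adjusted p = 0.0105). Mxd4, which competes with MYC for its partner MAX, was at 10.76, 10.45 and 10.52 against 9.24, 9.19 and 9.12 (difference -1.40, SE 0.17, adjusted p = 0.00886).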
